A study of Mus musculus with 97 samples.

Results

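Dbp, Tef and Hlf are the PAR bZIP factors, and Nfil3 (also called E4BP4) is the bZIP repressor that binds the same DNA sites. The 4 genes were followed across 18 groups of mouse colon libraries, out of 20457 genes in the table. All 4 were among the 17083 genes that passed the filter on low values, a TPM (a length-normalised transcript share) of at least 1 in at least 4 libraries. They were selected on measured values, because earlier results of these data had shown Dbp and its relatives to differ between antibiotic and PBS groups. Differences from PBS are therefore given as a description and support nothing.

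DBP, TEF and HLF are activators at D-box elements, and NFIL3 represses from the same elements. In the textbook account, CLOCK and BMAL1 (encoded by Arntl) drive Dbp through E-boxes, while REV-ERB receptors (Nr1d1, Nr1d2) restrain Nfil3, so that Dbp and Nfil3 peak at opposite phases of the day. In the mouse intestine, NFIL3 is known for lipid uptake by epithelial cells under control of the microbiota, and for the development of group 3 innate lymphoid cells. The PAR factors are known in liver and kidney for driving drug-metabolising enzymes.

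All libraries were made from whole colon of wild-type C57BL6/J mice aged 8 to 12 weeks, kept on a 12-hour light/dark cycle. The groups received Ampicillin, Metronidazole, Neomycin, Vancomycin, a Mix of the 4, or PBS alone, each by gavage (PO), intraperitoneal (IP) or intravenous (IV) injection. Each antibiotic dose held 2.5 mg in 100 µl of PBS. Dosing was 2 times a day for 3 days with 1 more on day 4, and colon was taken 4 hours later. The sources used here give neither the clock time of collection nor how much of each drug the Mix held. Of the 18 groups, 11 held 6 libraries, 3 held 5 (PBS-IV, Neomycin-IV, Vancomycin-IV) and 4 held 4 (PBS-IP, Metronidazole-IP, Metronidazole-IV, Vancomycin-IP). The labels do not state whether each of the 97 libraries came from its own mouse, and p-values then reflect only library-to-library spread, part of which may be technical.

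TPM sums to the same total in every library, so depth is unknown. Colon markers were present in every library, with Slc26a3, a colonocyte chloride exchanger, at 255 to 3962 TPM and Muc2, the goblet cell mucin, at 103 to 6759 TPM. The libraries varied widely in makeup. A smooth muscle score averaged log2(TPM + 1) over 10 markers, all detected, and ran from 8.04 to 12.4. A distal score of 5 posterior Hox genes ran from 0.801 to 6.15. No 2 libraries held identical values. The columns of 12 libraries stand out of order at the end of the table. They are 2 each of PBS-IP, PBS-IV and Vancomycin-IV and 3 each of Vancomycin-PO and Vancomycin-IP. Most of the main results that rest on them are also given without them. In whole tissue, fewer cells of a type and less RNA per cell cannot be told apart.

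Promoter sequence was read from the RefSeq table (build GRCm38.p6) because the clock acts on these genes through short promoter elements. The 250 bases before each annotated start were searched on both strands for the E-box CACGTG, the D-box TTATGTAA or TTACGTAA, and the REV-ERB/ROR element TAGGTCA. The shares of 32851 such windows holding them were 6.02%, 0.932% and 2.23%. Tef is shown because each of its starts has an E-box, 127 and 138 bases upstream. In the window of its first start 0 bases lie outside annotated exons, so that E-box is in exon sequence. Only the second window, with all 250 bases outside exons, is printed. Nfil3 is shown because the REV-ERB/ROR element lies 12 bases before its start, on the opposite strand. Of its 250 bases, 216 lie outside annotated exons, and whether the 30 printed do was not checked. Dbp is shown, without its transcribed bases, because its window holds none of the 3 motifs. Hlf had no match either. Capitals mark the motif, and each line runs 5′ to 3′ on the gene's strand.
Tef, second start, chr15:81811164-81811413, plus strand: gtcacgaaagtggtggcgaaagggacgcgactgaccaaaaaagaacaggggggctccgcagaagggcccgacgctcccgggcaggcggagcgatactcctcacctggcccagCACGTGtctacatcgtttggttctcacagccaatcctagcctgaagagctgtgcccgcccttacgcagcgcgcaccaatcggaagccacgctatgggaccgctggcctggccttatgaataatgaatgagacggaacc
Nfil3, chr13:52981040-52981069, minus strand: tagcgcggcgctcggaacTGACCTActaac
Dbp, chr7:45704997-45705087, plus strand: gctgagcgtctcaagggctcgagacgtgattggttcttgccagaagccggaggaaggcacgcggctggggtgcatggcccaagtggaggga
A match is a description of letters in a window, and no match says nothing about binding elsewhere. Among 14 other clock genes with a window, 4 held the E-box (Bhlhe41, Ciart, Cry1, Per1) and 1 the D-box (Per3).

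In TPM, Dbp and Tef were abundant colon transcripts and Nfil3 a scarce one. Mean TPM over the 97 libraries was 120 for Dbp, 125 for Tef, 34.6 for Hlf and 5.92 for Nfil3. The share of tested genes with a lower mean was 88.7%, 91.2%, 55.0% and 28.2%.

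**Figure D1:**
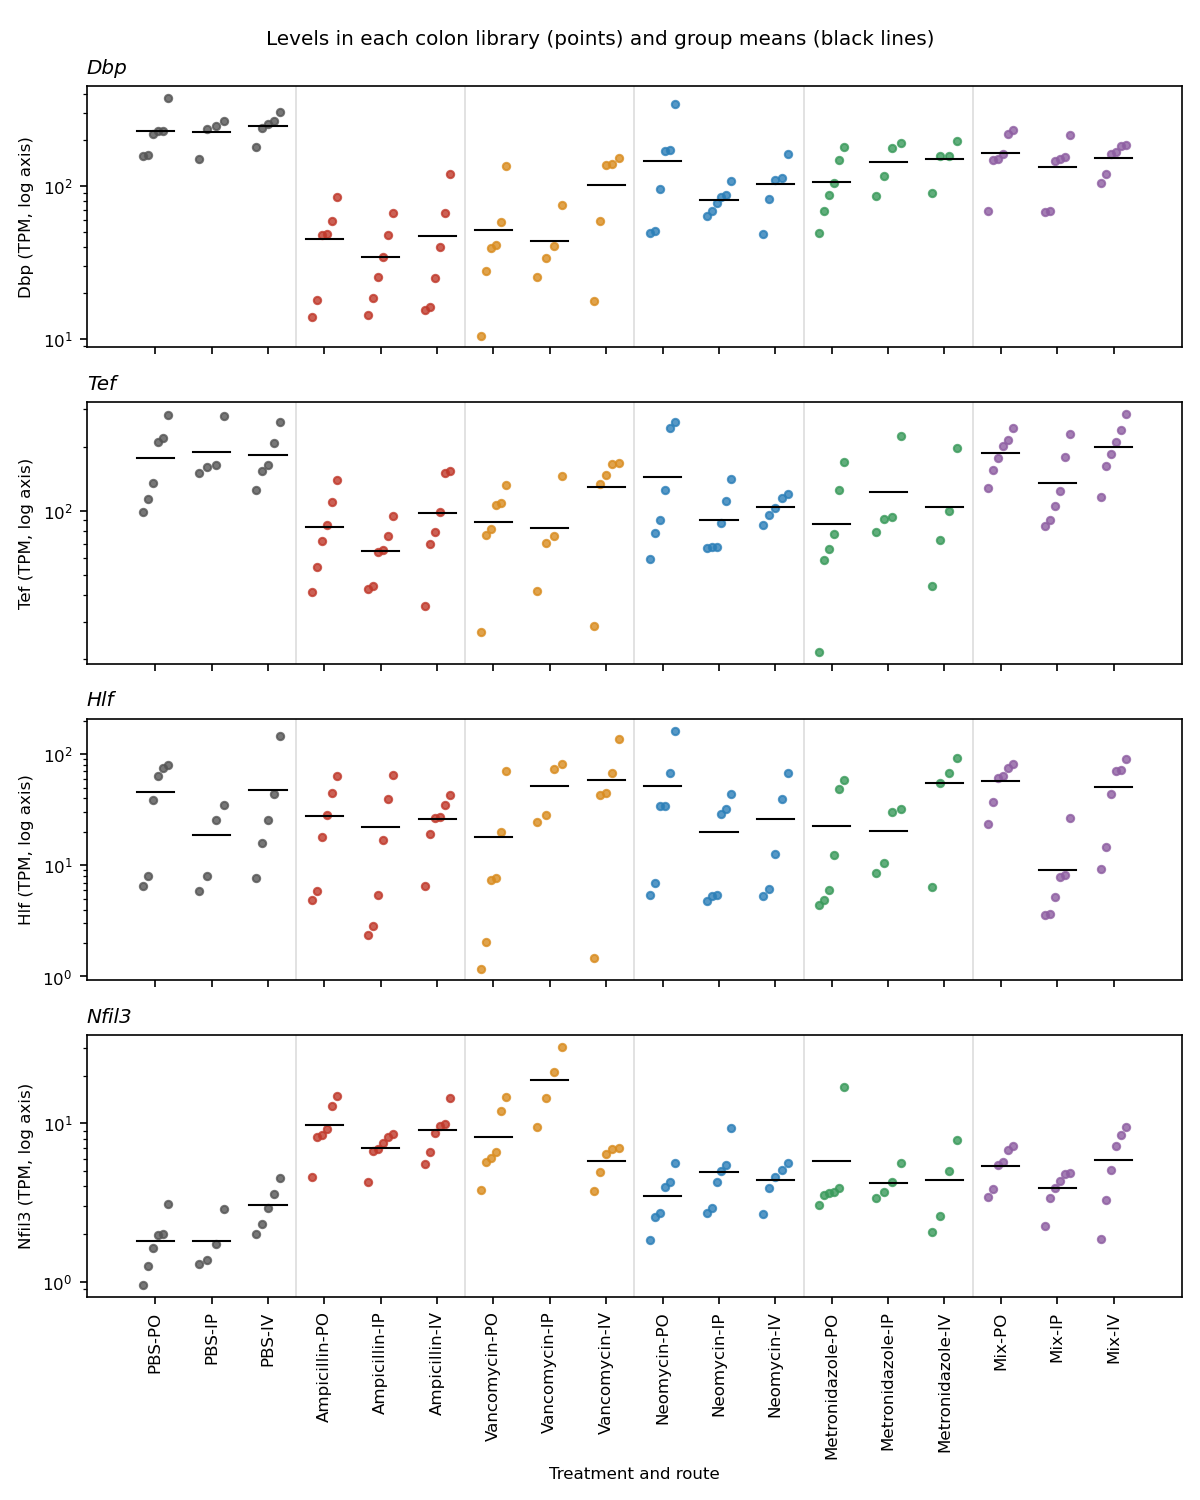
TPM on a log axis of Dbp, Tef, Hlf and Nfil3 in each library, by treatment and route, with black lines at group means. All 18 Ampicillin libraries lie below the lowest PBS library for Dbp, while Hlf spreads over at least 21.2-fold within every treatment. The share of all genes that separate so was not computed.

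Dbp, the PAR factor with the widest daily swing in most tissues, was highest in PBS. It stood at 149, 238, 248 and 266 TPM in PBS-IP and at 179, 240, 253, 265 and 304 TPM in PBS-IV. PBS-PO ran from 158 TPM through a median of 224 to 378. The 3 control groups overlapped fully, and the F test of equal PBS levels over routes gave adjusted p = 0.986 (limma), with 0% of all genes called (0 genes at an adjusted p under 0.05, 386 at an unadjusted p under 0.05).

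Dbp was low with Ampicillin by each route. Ampicillin-PO ran from 13.9 to 84.4 TPM (median 48.4), Ampicillin-IP from 14.4 to 66.2 TPM (median 30.01) and Ampicillin-IV from 15.4 to 121 TPM (median 32.6). No Ampicillin library reached the lowest of the 15 PBS libraries. The share of all genes that separate from PBS as fully was not computed, for this or any later count of libraries beyond PBS. Mean TPM was 42.4 ± 29.0 (SD, n = 18) against 234 ± 59.6 (n = 15), a ratio of 5.53. On log2(TPM + 1), Dbp fell by 2.50 (SE 0.44), 2.82 (SE 0.50) and 2.74 (SE 0.47) in PO, IP and IV, with limma adjusted p of 0.000949, 0.00193 and 0.000693. Of all genes, 0.0702%, 0.492% and 0.082% were called in the same comparisons.

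Dbp was also low with Vancomycin, with calls against PBS by mouth and into the peritoneum. The F test of equal Vancomycin effects over routes gave adjusted p = 0.735 (limma), so no route difference is stated. Vancomycin-PO ran from 10.5 to 135 TPM (median 40.5), Vancomycin-IP held 25.5, 33.8, 40.3 and 75.3 TPM, and Vancomycin-IV held 17.6, 59.5, 138, 138 and 154 TPM. Of the 15 libraries, 14 lay below every PBS library. Dbp fell by 2.43 (SE 0.44, limma adjusted p = 0.00198) in PO and changed by -2.42 (SE 0.54, adjusted p = 0.00516) in IP, with 0.176% and 19% of genes called. The IV change of -1.61 (SE 0.49) missed the threshold (limma adjusted p = 0.0982, 0.258% of genes called). Without the 12 out-of-order libraries the PO and IP changes were -2.0 and -2.81, with adjusted p of 0.140 and 0.285. That left 1 library in Vancomycin-IP, assumed to vary like the other groups.

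The other treatments had higher Dbp than Ampicillin. Neomycin-IP ran from 63.4 to 108 TPM (median 80.8), Neomycin-IV held 48.6, 82.2, 110, 113 and 163 TPM, and Neomycin-PO spread from 49.5 to 342 TPM (median 132). Metronidazole-IP held 86.4, 116, 179 and 192 TPM, Metronidazole-IV 89.8, 157, 158 and 198, and Metronidazole-PO ran from 49.2 to 180 (median 95.9). Neomycin-IP (6 of 6 libraries) and Neomycin-IV (5 of 5) lay below every PBS library of the same route, while the other 4 groups overlapped theirs. Such separation is a description, as its share over all genes was not computed. Against all 15 PBS libraries both antibiotics overlapped, with 13 of 17 Neomycin and 8 of 14 Metronidazole libraries below the lowest PBS library. The Mix, which contains all 4 drugs, gave 68.9 to 232 TPM by mouth (median 156), 67.2 to 215 into the peritoneum (median 148) and 105 to 184 into a vein (median 165). Only 7 of its 18 libraries lay below the lowest PBS library.

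None of those 9 comparisons was called for Dbp, whose log2 changes ran from -1.44 to -0.52. The shares of all genes called were 0.0176%, 0.603% and 0.544% for Neomycin PO, IP and IV, 0% for Metronidazole by each route, and 0.252%, 0.275% and 0% for the Mix. In the comparisons with 0 genes called, 252 to 1221 genes had an unadjusted p under 0.05. In all, Dbp was called in 5 of 15 comparisons and its change was below zero in 15. Comparisons of a route share the same PBS group, so the 15 signs are not independent. The share of all genes with the same sign in all 15 was not computed. Its exons overlap those of Sphk2, a sphingosine kinase gene on the opposite strand, and strand use is not stated. Sphk2 was called in no comparison, with changes of 0.21 in Ampicillin and -0.10 in Vancomycin averaged over routes.

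**Figure D2:**
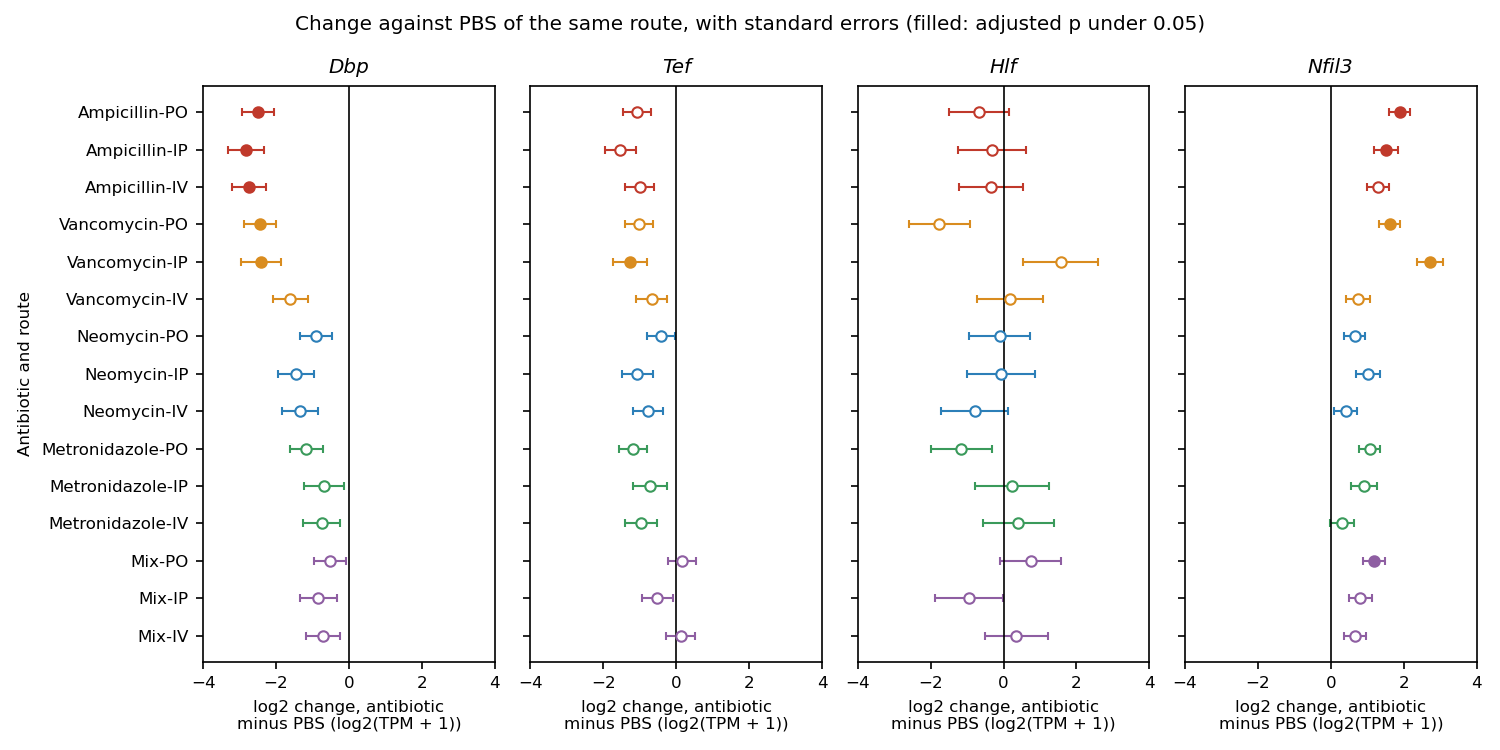
Change on log2(TPM + 1) of each antibiotic group against PBS of its route, with standard errors, filled where the limma adjusted p was under 0.05. Dbp lies left of zero and Nfil3 right of zero in all 15 comparisons, while Hlf intervals are wide and on both sides. Comparisons of a route share the same PBS group.

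Averaged over routes, Dbp changed by -2.69 (SE 0.27) with Ampicillin, -2.15 (SE 0.28) with Vancomycin and -1.23 (SE 0.28) with Neomycin, with limma adjusted p of 1.01e-11, 1.77e-07 and 0.00255. Metronidazole at -0.87 and the Mix at -0.68 were not called (limma adjusted p = 0.263 and 0.102). The shares of all genes called in these averages were 7.88%, 26%, 2.34%, 0.398% and 7.96%.

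Tef, which shares most of its DNA-binding domain with Dbp, moved less. It stood at 150, 160, 165 and 277 TPM in PBS-IP and at 125, 153, 164, 207 and 260 TPM in PBS-IV, and ran from 99.0 to 280 TPM in PBS-PO (median 173). Vancomycin-IP held 42.0, 70.7, 75.7 and 145 TPM, all below PBS-IP. This was the only one of 15 comparisons called for Tef, a fall of 1.26 (SE 0.47, limma adjusted p = 0.0472), in the comparison where 19% of all genes were called. Without the out-of-order libraries it was -1.46 with adjusted p = 0.303, and leaving out any 1 of 8 single libraries also ended the call (limma adjusted p 0.0583 to 0.141, change -1.57 to -0.98).

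Ampicillin-IP ran from 42.9 to 94.1 TPM for Tef (median 64.7), below every PBS-IP library, with a larger change of -1.54 that was not called (limma adjusted p = 0.0695), where 0.492% of all genes were. Averaged over routes, Tef fell by 1.20 (SE 0.23) with Ampicillin and by 0.99 (SE 0.24) with Vancomycin, with limma adjusted p of 0.000332 and 0.00282. Without the out-of-order libraries the Vancomycin value was -0.81 with adjusted p = 0.101. Metronidazole at -0.95 and Neomycin at -0.75 were not called (adjusted p = 0.0574 and 0.0718), though leaving out any 1 of 7 libraries for Metronidazole, or Neomycin-PO replicate 2 or 6, brought them past the threshold (0.0178 to 0.0472 and 0.0381 to 0.0403). Over all its libraries the Mix gave 174 ± 57.5 TPM of Tef (n = 18), against 181 ± 58.3 (n = 15) in PBS. Its change averaged over routes was -0.08, with a 95% interval (1.96 SE) from -0.54 to 0.37, which does not show equal levels. By route the change was 0.15 by mouth, -0.52 (SE 0.43) by IP and 0.12 by IV, none called. Mean TPM was 135 in Mix-IP and 188 in PBS-IP, and 4 of 6 Mix-IP libraries lay below every PBS-IP library. The F test of equal Mix effects over routes did not call Tef. Exons of Tef overlap the predicted gene Gm17597 on the opposite strand, which was not tested.

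Hlf, the PAR factor also found at high levels in brain, liver and kidney, varied most between libraries of the same treatment. In PBS it ran from 5.88 TPM through a median of 25.8 to 147, in Ampicillin from 2.38 through 22.9 to 65.4, and in Vancomycin from 1.18 through 28.2 to 138. Metronidazole gave 4.37 to 92.8 TPM (median 21.3), Neomycin 4.82 to 162 (median 29.1) and the Mix 3.58 to 91.4 (median 31.8). Highest over lowest was between 21.2 and 117 within a treatment, against 2.53 to 14.6 for Dbp, and every treatment overlapped PBS. Of the 15 comparisons limma called 0, with changes from -1.76 to 1.57 and standard errors of 0.83 to 1.02. Vancomycin-PO alone was past 0.05 before adjustment (limma adjusted p = 0.772). A p that misses the threshold does not show that Hlf stayed the same.

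The smooth muscle score moved with Hlf. Over deviations from group means in 97 libraries, Pearson's r was 0.70 and Spearman's rho 0.69 (permutation p = 1e-05 each, the smallest 100000 shuffles can give, and adjusted p = 8e-05 over 8 relations of 4 genes with 2 scores). It was 0.68 without the 2 libraries farthest out, and 0.65 without the out-of-order libraries. When both scores entered the fit as covariates, Hlf fell by 1.13 with Ampicillin averaged over routes (limma adjusted p = 0.0297), against -0.44 (adjusted p = 0.607) without them. In Vancomycin-IP against PBS-IP the Hlf change went from 1.57 to -0.60, neither called. There the muscle score was 11.8 ± 0.324 (n = 4) in Vancomycin-IP and 9.57 ± 0.460 (n = 4) in PBS-IP.

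Nfil3, the repressor at the same sites, ran opposite to Dbp. Its PBS level was 1.29, 1.37, 1.73 and 2.86 TPM by IP and 2.0, 2.32, 2.91, 3.58 and 4.54 TPM by IV, and 0.952 to 3.12 TPM by mouth (median 1.80). Vancomycin-IP held 9.46, 14.4, 21.1 and 30.2 TPM, the highest group of the 18. Each of these libraries was above every PBS library. Nfil3 rose by 2.73 there (SE 0.35, limma adjusted p = 4.58e-07), and mean TPM was 10.4 times that of PBS-IP, in the comparison where 19% of all genes were called and the muscle score was 11.8 against 9.57. With the muscle and distal scores as covariates the rise was 2.29 (limma adjusted p = 2.3e-05), and without the out-of-order libraries, which left 1 library in Vancomycin-IP, it was 3.14 (adjusted p = 0.0178).

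With Ampicillin, Nfil3 was high as well. Ampicillin-PO ran from 4.60 to 14.8 TPM (median 8.86), Ampicillin-IP from 4.23 to 8.55 TPM (median 7.20) and Ampicillin-IV from 5.56 to 14.5 TPM (median 9.20). Of these 18 libraries, 17 were above the highest PBS library. The rise was 1.89 (SE 0.29, limma adjusted p = 8.64e-05) by mouth and 1.52 (SE 0.32, adjusted p = 0.00776) into the peritoneum. The IP call was lost without PBS-IP replicate 1 or 4 (changes 1.43 and 1.45, adjusted p = 0.0505 and 0.0518). The IV value of 1.3 (SE 0.30) was not called (limma adjusted p = 0.0582), but passed without Ampicillin-IV replicate 5 or 6 or PBS-IV replicate 1 (1.37 to 1.42, adjusted p 0.0285 to 0.0488). Vancomycin-PO, at 3.77 to 14.8 TPM (median 6.31), rose by 1.62 (SE 0.29, limma adjusted p = 0.00171). Of the Vancomycin-PO libraries 3 stand out of order, and the change without them is not reported here. Vancomycin-IV held 3.76, 4.91, 6.39, 6.89 and 6.95 TPM, a change of 0.74 that was not called (limma adjusted p = 0.262).

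With the Mix, Nfil3 ran from 3.43 to 7.16 TPM by mouth (median 5.57), above every PBS-PO library, and rose by 1.18 (SE 0.29, limma adjusted p = 0.0438). Mix-IP ran from 2.25 to 4.85 TPM (median 4.10) and Mix-IV from 1.86 to 9.55 (median 6.12). Metronidazole-IP held 3.36, 3.70, 4.25 and 5.60 TPM, Metronidazole-IV 2.06, 2.59, 4.98 and 7.84, and Metronidazole-PO ran from 3.04 to 17 (median 3.65). Above the highest PBS library were 10 of 18 Mix and 4 of 14 Metronidazole libraries. Neomycin-IV held 2.69, 3.92, 4.59, 5.06 and 5.58 TPM, while Neomycin-PO ran from 1.84 to 5.63 (median 3.35) and Neomycin-IP from 2.70 to 9.38 (median 4.63), with 7 of 17 libraries above that level.

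Nfil3 was called in 5 of 15 single comparisons and in 5 of 5 averages over routes. In those single comparisons, the shares of all genes called were 0.0702% (Ampicillin-PO), 0.492% (Ampicillin-IP), 0.176% (Vancomycin-PO), 19% (Vancomycin-IP) and 0.252% (Mix-PO). For the averages they were 7.88% (Ampicillin), 26% (Vancomycin), 7.96% (Mix), 0.398% (Metronidazole) and 2.34% (Neomycin). The averages were 1.57 with Ampicillin, 1.70 with Vancomycin, 0.88 with the Mix, 0.76 with Metronidazole and 0.70 with Neomycin (SE 0.18 to 0.19), with limma adjusted p of 4.08e-10, 3.19e-10, 0.00061, 0.0409 and 0.0141. Without the out-of-order libraries the single calls were 2 and the averages 3, and the Mix-PO call was lost on leaving out any 1 of 8 single libraries (limma adjusted p 0.0639 to 0.155), the Metronidazole average on leaving out any 1 of 14 (0.0515 to 0.115). Because Nfil3 is low, log2(TPM + 1) understates its changes. Muscle scores moved with Nfil3 too (r = 0.40, rho = 0.37, permutation adjusted p = 0.00018 and 0.0004), and with both scores as covariates the Vancomycin and Ampicillin averages were 1.46 and 1.43 (limma adjusted p = 1.35e-08 and 3.67e-10).

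No route difference of a member passed the test. In F tests of equal antibiotic effects over the 3 routes, 0 of 4 members were called for any antibiotic, against 0.0878% of genes for Neomycin and 0% for the other 4 treatments. The lowest unadjusted p was 0.000366, for Nfil3 with Vancomycin (limma adjusted p = 0.632), whose changes were 1.62, 2.73 and 0.74 by PO, IP and IV. Ordering the 18 groups by mean log2 level, 0 of 17 steps between neighbours exceeded the larger SD for Dbp, Tef or Hlf. For Nfil3, 2 steps did: Vancomycin-IP above Ampicillin-PO, and PBS-IV above PBS-IP.

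The antibiotics were next compared with each other, without PBS values. The same antibiotic libraries stood in the comparisons by which the genes were chosen, so these tests are not fully independent of that choice. For Dbp, the pairs called set Ampicillin and Vancomycin on one side and Metronidazole, Neomycin and the Mix on the other. All 6 pairs across that line were called, and the 4 within it were not. With array weights 8 pairs were called, the other 2 being Ampicillin minus Vancomycin (-0.89) and Neomycin minus Mix (-0.78). Nfil3 was called in the same 6 of 10 pairs, in the opposite direction, and in 7 with array weights.

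Dbp was lower with Ampicillin than with Metronidazole by a log2 difference of -1.82, than with Neomycin by -1.45, and than with the Mix by -2.0 (SE 0.26 to 0.28, limma adjusted p = 1.17e-05, 4.9e-05 and 2.15e-08). The same pairs gave 0.81, 0.87 and 0.69 for Nfil3 (limma adjusted p = 0.0025, 0.000211 and 0.0147), with 7.02%, 4.4% and 0.82% of all genes called. Vancomycin differed from Metronidazole, Neomycin and the Mix as well. Metronidazole minus Vancomycin was 1.29 and Neomycin minus Vancomycin 0.92 for Dbp, and Vancomycin minus Mix was -1.47 (limma adjusted p = 0.00319, 0.0126 and 0.000206).

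For Nfil3 those 3 differences were -0.94, -1.0 and 0.81 (limma adjusted p = 0.0012, 5.25e-05 and 0.00194), with 7.64%, 29.3% and 21.9% of genes called. Without the out-of-order libraries, 4 of the 6 Dbp pairs and 6 of the 6 Nfil3 pairs were called; Dbp then gave 1.08 for Metronidazole and 0.71 for Neomycin against Vancomycin (limma adjusted p = 0.0745 and 0.117). Ampicillin minus Vancomycin was -0.53 for Dbp (95% interval -1.06 to 0.00) and -0.13 for Nfil3 (-0.47 to 0.22), where 2.3% of genes were called. Metronidazole minus Neomycin, Metronidazole minus Mix and Neomycin minus Mix were 0.36, -0.18 and -0.55 for Dbp, with 3.5%, 10.9% and 0.954% of genes called. Their 95% intervals reached as far as 0.91 for the first and ran from -1.06 to -0.04 for the last, which was not called after adjustment (limma adjusted p = 0.352).

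Tef followed another line. It was called in 3 of the 10 pairs, each with the Mix: Ampicillin minus Mix was -1.12, Metronidazole minus Mix -0.87 and Vancomycin minus Mix -0.90 (limma adjusted p = 0.000589, 0.0105 and 0.00658). Without the out-of-order libraries 2 of the 10 were called, and Vancomycin minus Mix was -0.66 (limma adjusted p = 0.0930). With score covariates 4 were called. Of the 3, 2 were also called for Dbp. Hlf was called in 0 of 10. F tests of equal levels of the 5 antibiotics, averaged over routes, gave limma adjusted p of 1.64e-09 for Dbp, 1.21e-06 for Nfil3, 0.0011 for Tef and 0.855 for Hlf, where 30% of all genes were called. Within routes, Dbp was called in PO, IP and IV (adjusted p = 0.00728, 0.00275 and 0.0193) and Nfil3 in PO and IP (0.0488 and 8.86e-05), not in IV (0.251), with 1.08%, 13.7% and 1.08% of genes called.

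Dbp in the Mix was also set against the average of the 4 single antibiotics of the same route, as Mix minus single. The log2 difference was 1.24 (SE 0.35, limma adjusted p = 0.0475) by mouth, called, and 1.01 and 0.91 by IP and IV, not called (adjusted p = 0.0788 and 0.998). Tef gave 1.08 (SE 0.30, limma adjusted p = 0.0443), 0.62 and 0.97. Nfil3 was called by no route, with -0.12, -0.74 and -0.03. Of all genes, 1.64%, 3.34% and 0.00585% were called. Both oral calls lay close to the threshold and were lost under several settings.

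**Figure D3:**
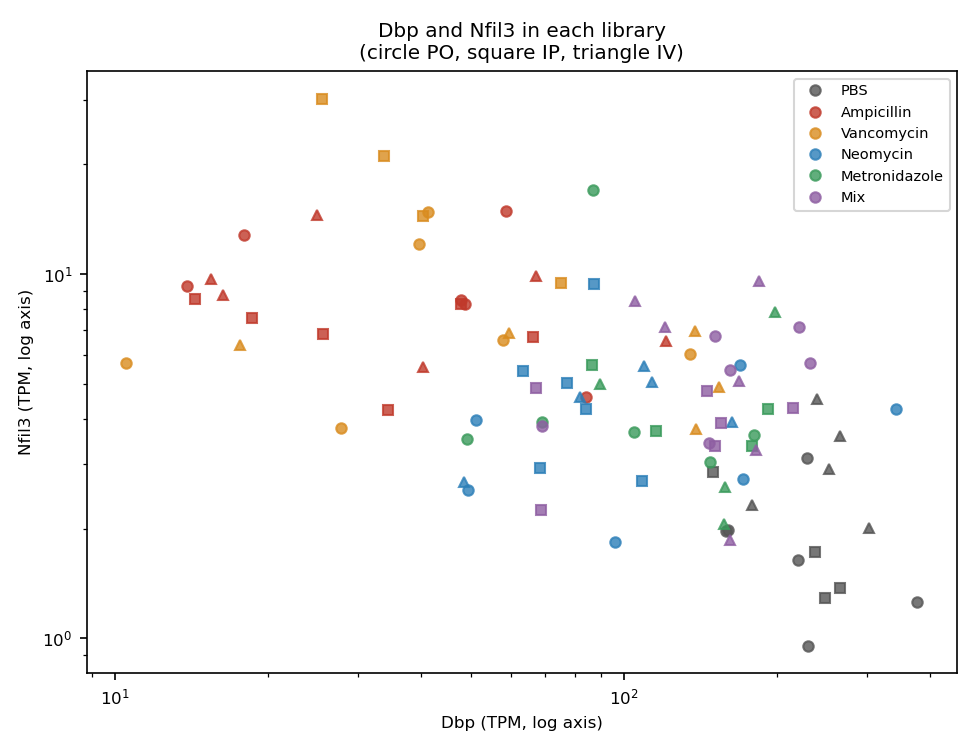
Dbp against Nfil3 TPM in each library on log axes, coloured by treatment with route by symbol. PBS libraries lie at lower right, Ampicillin and most Vancomycin libraries at upper left, and Metronidazole, Neomycin and Mix between them.

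The balance of the activator over the repressor was expressed per library as log2(TPM + 1) of Dbp minus that of Nfil3. Its median was 6.02 in PBS (5.28 to 7.39), 2.14 in Ampicillin (0.46 to 4.01) and 2.59 in Vancomycin (-0.24 to 4.87). Metronidazole stood at 4.57, Neomycin at 4.07 and the Mix at 4.72. Every Ampicillin and every Vancomycin library lay below every PBS library. Both genes were chosen on such differences from PBS, so this separation is a description and supports nothing. How many other gene pairs separate as fully was not tested. In the Vancomycin-IP library with 25.5 TPM of Dbp, Nfil3 stood at 30.2 TPM.

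Within groups, the 3 PAR factors went together over all libraries, and on log2(TPM + 1) as it stands their relations with Nfil3 did not pass the threshold. Deviations from group means of Dbp and Tef had r = 0.71 and rho = 0.71 over 97 libraries (permutation p = 1e-05, adjusted p = 2e-05 over 6 pairs of genes). The value was 0.66 without the 2 libraries farthest out, 0.645 in the 85 libraries in column order and 0.947 in the 12 out of order. It was 0.77 in the 82 antibiotic libraries but -0.12 in the 15 PBS libraries. Dbp with Hlf gave r = 0.46 (rho 0.45) and Tef with Hlf 0.53 (rho 0.49), each with permutation adjusted p = 2e-05. In the 15 PBS libraries alone these were 0.12 and 0.04.

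Dbp with Nfil3 gave only r = -0.11 and rho = -0.15 (permutation adjusted p = 0.321 and 0.164), a weak relation among libraries of a group. It reached -0.45 once smooth muscle and distal scores were removed from the deviations, with an unadjusted permutation p under 0.05. Tef with Nfil3 gave -0.03 (adjusted p = 0.794) and Hlf with Nfil3 0.20 (adjusted p = 0.0809). Dbp and Tef also fell as the distal score rose (r = -0.40 and -0.33, permutation adjusted p = 0.00016 and 0.00115), and rose with muscle (r = 0.34 and 0.40). The part of tissue makeup in these relations was not tested beyond that.

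**Figure D4:**
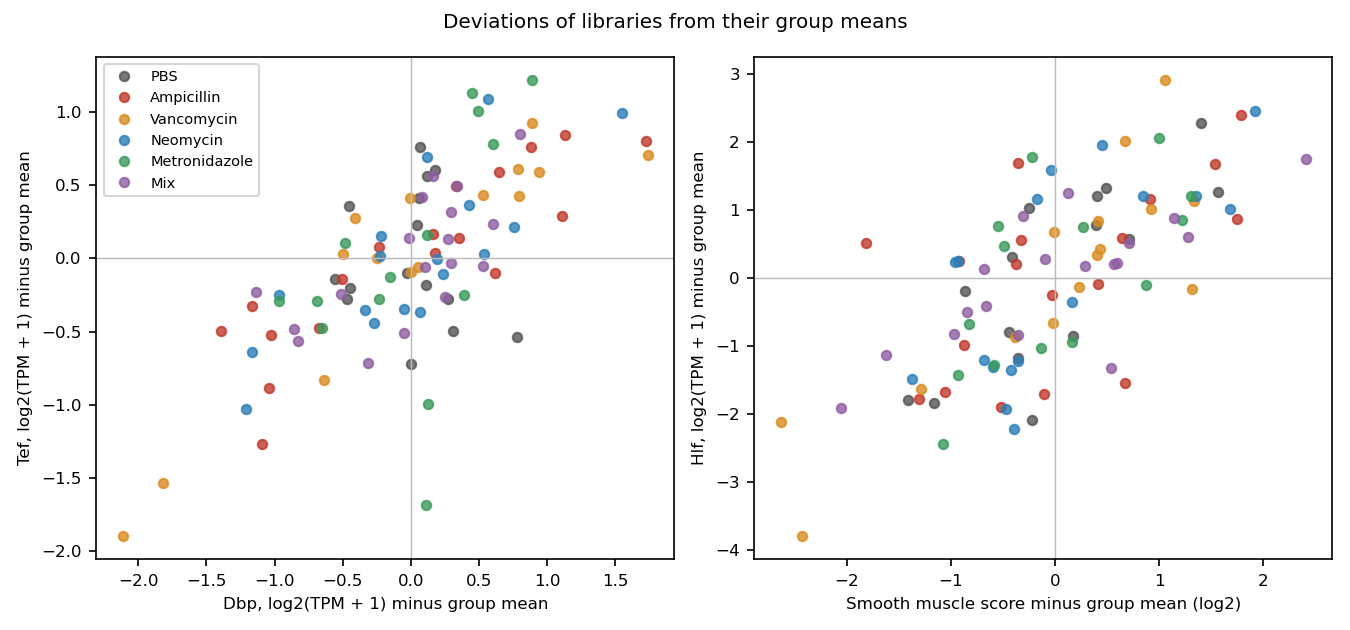
Deviations of log2(TPM + 1) from the group mean, Tef against Dbp on the left and Hlf against the smooth muscle score on the right, 1 point per library coloured by treatment. Both clouds rise, with r = 0.71 and 0.70.

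The genes whose 18 group means were most like Dbp, among 8363 ranked genes, were Per3 (r = 0.96), Nr1d2 (0.92), Usp2 (0.86) and Coq10b (0.85). Per3 is a period gene, Nr1d2 encodes REV-ERB beta, Usp2 is a clock-controlled deubiquitinase and Coq10b a coenzyme Q binding protein. Within groups Coq10b followed Dbp weakly (r = 0.12 over 97 libraries), unlike Nr1d2 (0.71) and Per3 (0.66). Those most opposite to Dbp were Sash1 (-0.89) and Ypel2 (-0.88), with only -0.12 and -0.15 within groups. These correlations include the PBS groups and are a description only.

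Tef was most like Nr1d2 (r = 0.91), Coq10b (0.88), Per2 (0.85) and Per3 (0.84), and most opposite to Sash1 (-0.80) and Sdc4 (-0.77). Within groups, over 97 libraries, Tef gave 0.82 with Nr1d2 and 0.62 with Per3, but 0.26 with Per2 and 0.05 with Coq10b. With Sash1 it gave 0.14, of the other sign, and with Sdc4 -0.35. Hlf was most like Psmd4 (0.86), a proteasome subunit, then Snapc4 (0.79), Tanc1 (0.78) and Xylt2 (0.77), none of them a clock gene, with Mrpl53 (-0.65) among the most opposite. For Nfil3 the nearest of 8364 ranked genes were Sfxn3 (0.92), Amotl2 (0.92), Rela (0.89), which encodes an NF-kappaB subunit, and Spryd3 (0.89). Herpud1 (-0.89) and Usp2 (-0.88) were the most opposite. Within groups, Nfil3 gave 0.24 with Sfxn3, 0.47 with Amotl2, 0.24 with Rela and 0.42 with Spryd3. With Herpud1 it gave -0.36 and with Usp2 -0.11.

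**Figure D5:**
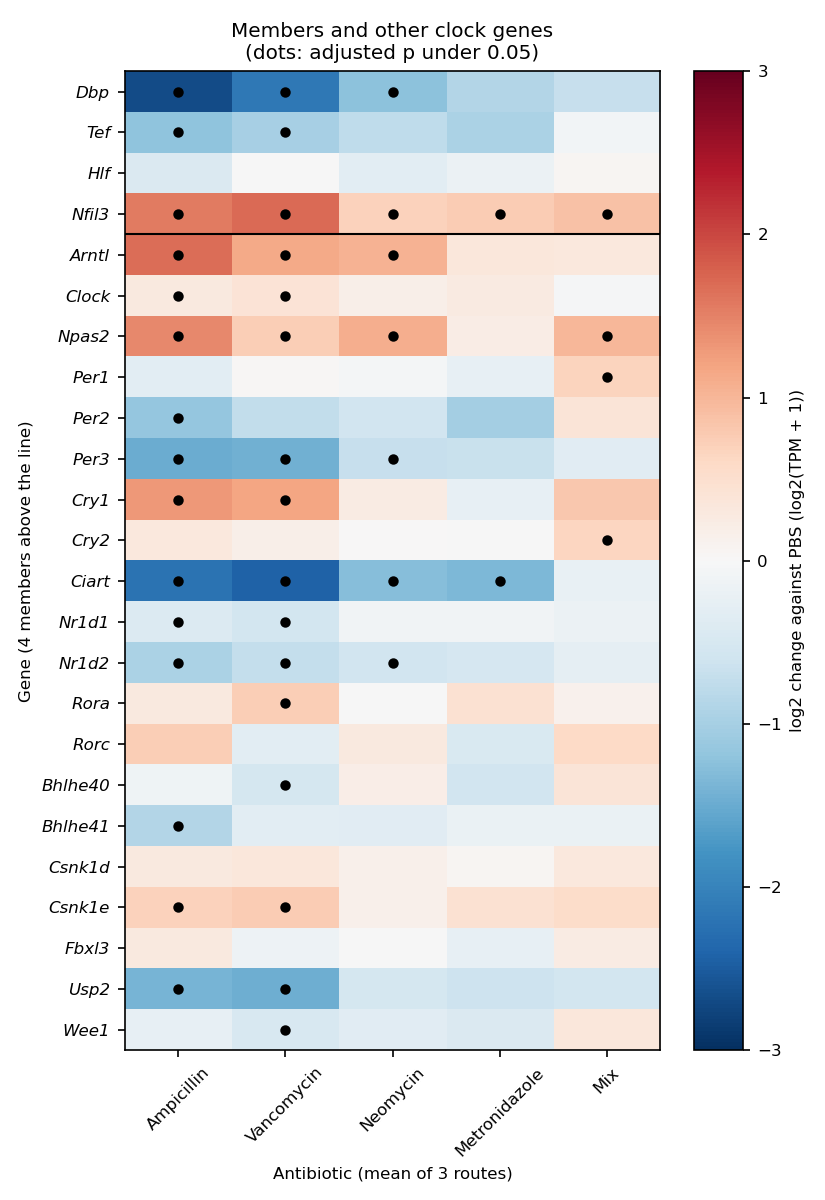
Change on log2(TPM + 1) against PBS, averaged over routes, of the 4 members and 20 other clock genes, with dots where the limma adjusted p was under 0.05. Ciart and Per3 are lower and Arntl and Npas2 higher with Ampicillin and Vancomycin, like Dbp and Nfil3 respectively.

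Other genes of the clock moved with Ampicillin and Vancomycin. Of 20 listed, all tested, 5 rose and 7 fell with Ampicillin, 6 rose and 7 fell with Vancomycin, 2 rose and 3 fell with Neomycin, 1 fell with Metronidazole and 3 rose with the Mix, averaged over routes. Over all genes the shares called were 7.88%, 26%, 2.34%, 0.398% and 7.96% in that order. The list was drawn up with earlier results known. Its median change ran from -0.24 to 0.32, against 0.02 to 0.07 for all genes. Ciart, a repressor of CLOCK and BMAL1, changed by -2.21 with Ampicillin and -2.42 with Vancomycin (limma adjusted p = 3.38e-11 and 2.06e-11), from 23.4 ± 8.32 TPM in PBS (n = 15) to 4.40 ± 2.50 (n = 18) and 3.99 ± 3.27 (n = 15).

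Ciart also fell with Metronidazole, by 1.35 (limma adjusted p = 0.000982), where Dbp was not called, and with Neomycin by 1.27. Per3 changed by -1.50, -1.44 and -0.69 with Ampicillin, Vancomycin and Neomycin, all called, and Usp2 by -1.40 and -1.48 with the first 2. Nr1d2 fell by 0.94, 0.71 and 0.58 with those 3. Arntl, the activator, rose by 1.69, 1.15 and 1.04 with Ampicillin, Vancomycin and Neomycin, and its partner Npas2 by 1.44, 0.74 and 1.08. With the Mix, Npas2 rose by 1.00 (limma adjusted p = 0.001), while Arntl at 0.31, Ciart at -0.23 and Per3 at -0.33 were not called.

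Listed targets of the PAR factors, known mainly from mouse liver and kidney, were mostly not called. This list shares Per1, Per2 and Per3 with the clock list. Per3, called above with Ampicillin, Vancomycin and Neomycin, is therefore counted again among the falls here. Of 21, 14 were tested; 1 rose and 3 fell with Ampicillin, 2 fell with Vancomycin, 1 fell with Neomycin, 2 rose with the Mix and 0 were called with Metronidazole. Over all genes 7.88%, 26%, 2.34% and 7.96% were called with the first 4, so that the Vancomycin count is below the background, and the single Neomycin call and the Mix count are not read as results about the list. Abcb1a, the P-glycoprotein drug exporter, fell by 1.95 with Ampicillin and by 2.20 with Vancomycin (SE 0.47 and 0.49, limma adjusted p = 0.00413 and 0.00117). It ran from 29.0 to 1120 TPM in PBS, 22.8 to 493 in Ampicillin and 13.7 to 383 in Vancomycin, so the ranges overlapped. The part of tissue makeup in its fall was not tested. Pdxk, pyridoxal kinase, rose by 0.38 and by 0.59 with Ampicillin and the Mix. Por, the reductase of cytochromes P450, stayed between -0.20 and 0.13 and Alas1, of heme synthesis, between -0.49 and -0.00, with no call. Median changes ran from -0.40 to 0.07.

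Lipid genes linked to NFIL3 in mouse intestine were mostly not called. Of 12 tested, 1 rose with each of Ampicillin, Vancomycin and the Mix, and 0 were called with Neomycin and Metronidazole. These counts are near the shares of all genes called with Ampicillin and the Mix (7.88% and 7.96%) and below that with Vancomycin (26%), so they are no result about lipid genes. The genes called were Cd36, a fatty acid receptor, and Apob, the apolipoprotein of chylomicrons, the latter named after its values were seen. Cd36 rose by 0.63 with Vancomycin (SE 0.23, limma adjusted p = 0.0396). Apob rose by 1.68 with both Ampicillin and the Mix (adjusted p = 0.00937 and 0.0104). Scd1, a fatty acid desaturase, was called with none.

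Markers of group 3 innate lymphoid cells, of which 8 of 12 were tested, showed 1 rise with Ampicillin, 1 with Vancomycin, and 1 rise and 1 fall with the Mix. With 7.88%, 26% and 7.96% of all genes called, these few calls are not read as results about the markers. The fall was Il1r1, the interleukin-1 receptor, by 0.33 (limma adjusted p = 0.0139). Among 10 tested genes of related bZIP factors, 4 rose with Vancomycin and 1 each with Ampicillin and the Mix, against the same 26%, 7.88% and 7.96% of all genes. Crem, a cAMP-responsive factor, rose by 0.91 with Vancomycin and by 0.62 with Ampicillin (adjusted p = 0.00166 and 0.0405), and Atf5 by 0.71 with Vancomycin. Cebpb and Cebpa were called with no antibiotic.

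Glucocorticoid response genes were listed because steroid hormones shift peripheral clocks. Of 7 tested, 2 rose with Ampicillin, 1 with Vancomycin and 2 with the Mix, where 7.88%, 26% and 7.96% of all genes were called, so that the Vancomycin count is below the background. Dusp1, a MAP kinase phosphatase, rose by 0.78 and by 1.01 with Ampicillin and Vancomycin (limma adjusted p = 0.00482 and 0.00031). Fkbp5, the glucocorticoid receptor co-chaperone, rose by 1.58 with the Mix (adjusted p = 0.000471) and was not called with Vancomycin at -0.34. Their part in the levels of Dbp or Nfil3 was not tested.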

How the data were processed

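The authors deposited TPM values per gene for poly(A) RNA of whole colon, 97 libraries in 18 groups, each 1000 ng of RNA read single-end for 75 cycles. Per the submitters' processing notes, reads were handled with Trim Galore 0.6.2, cutadapt 3.5 and Salmon (version not given) against GRCm39. TPM keeps no depth. From the deposited TPM, 1 model of 18 groups was fitted to log2(TPM + 1) using limma 3.58.1 (trend and robust options, R 4.3.3), with Benjamini-Hochberg adjustment within each comparison and a threshold of 0.05. The 4 genes, the gene lists and the tests were chosen with earlier results of these data known. Besides the members, the genes named were the 4 most like and 2 most opposite each member, and from each list up to 4 called in most comparisons and up to 2 for contrast; 1 of these is not reported here. Alternatives were other pseudocounts (10, 0.1), no filter, quantile normalization, array weights, blocks, score covariates, libraries left out, and the compared groups fitted alone. Relations with the muscle and distal scores were added after seeing the data. Promoter windows came from RefSeq on GRCm38.p6, and no coordinate was converted.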

Additional observations from a re-analysis of the deposited data

Results flagged for a closer look

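Of 72 combinations of 4 genes and 18 groups, 8 held a library far from the rest of its group by a gap test on TPM. That test flags about 1 in 20 when values are normally distributed. TPM need not be, so the count is a description and shows no excess. For Dbp the library was PBS-PO replicate 3 at 377.5 TPM, next to 230.2. For Tef, PBS-IP replicate 1 stood at 276.9 TPM (next 164.6), Metronidazole-IP replicate 3 at 224.4 (next 93.17) and Vancomycin-IV replicate 1 at 28.65 (next 132.9). For Hlf, PBS-IV replicate 4 stood at 147.2 TPM (next 44.17), Vancomycin-PO replicate 4 at 70.6 (next 19.88) and Mix-IP replicate 1 at 26.53 (next 8.221). For Nfil3, Metronidazole-PO replicate 4 stood at 16.97 TPM (next 3.922). Without that last library the Nfil3 average for Metronidazole was 0.65 and no longer called (limma adjusted p = 0.0953).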

How the results depend on the processing

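No called direction reversed under any setting. Calls against PBS, of 15, changed as follows: Dbp 3 without the out-of-order libraries and 3 with the compared groups alone, from 5; Tef 0 with a pseudocount of 0.1, with no filter, with a block for library number and without the out-of-order libraries, and 4 with array weights and 4 with score covariates, from 1; Hlf 1 with array weights and 1 with covariates, from 0; Nfil3 3 with a pseudocount of 10, 9 with array weights, 2 without the out-of-order libraries and 1 with the compared groups alone, from 5, and 4 with quantile normalization, where Mix-PO was lost (limma adjusted p = 0.0532). Averages over routes, of 5, were 5 for Dbp with array weights, covariates and the compared groups alone, from 3; 4 for Tef with array weights and covariates and 1 without the out-of-order libraries, from 2; 1 for Hlf with covariates; and 3 for Nfil3 with a pseudocount of 10 and without the out-of-order libraries, and 4 with quantile normalization, where Metronidazole was lost (0.0961), from 5. Among antibiotic pairs, of 10, array weights gave 8 for Dbp, 5 for Tef, 1 for Hlf and 7 for Nfil3, quantile normalization 5 for Nfil3, covariates 4 for Tef, and leaving out the out-of-order libraries 4 for Dbp and 2 for Tef, from 6, 3, 0 and 6. Mix against single antibiotics was 0 for Dbp with a pseudocount of 0.1, no filter, quantile normalization, covariates and the compared groups alone, and 2 with array weights; 0 for Tef with no filter, quantile normalization, covariates and the compared groups alone, and 2 with array weights; 1 for Hlf with array weights and 1 with covariates; and 1 for Nfil3 with array weights. Route effects were 1 for Hlf and 1 for Nfil3 with array weights. The cause of these shifts was not tested. Leaving out 1 library at a time gave 0 to 2 for Dbp, 0 to 1 for Tef and 0 to 1 for Nfil3 in the Mix comparisons, and 0 to 2 of 15 and 2 to 4 of 5 for Tef against PBS. The relation of Dbp with Nfil3 was -0.24 with quantile normalization and -0.45 with scores removed, that of Tef with Nfil3 -0.34 with scores removed, and that of Hlf with Nfil3 -0.0156 with quantile normalization, -0.17 with scores removed and 0.29 without the out-of-order libraries. The values of -0.24, -0.45, -0.34 and 0.29 had a permutation p under 0.05, the others did not. These p-values were not adjusted over the pairs of genes, unlike those of the main relations. Over the 15 comparisons 3725 calls were made among all genes, 29520 with array weights, 1946 with covariates and 348 without the out-of-order libraries. Leaving out 1 library gave 1022 (Vancomycin-IP replicate 2), 1067 (Vancomycin-IP replicate 1), 1270 (PBS-IP replicate 1), 1879 (Vancomycin-IP replicate 3), 2210 (PBS-IP replicate 4) and 2254 (PBS-IP replicate 2).

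Replicate numbers did not pair the samples across the design as a whole. In 2 of 45 pairs of groups every same-number correlation passed 0.1, and the mean was 0.01 for same and -0.00 for other numbers. By IV, same-number means were 0.48 for Ampicillin with Metronidazole, 0.45 for Ampicillin with Vancomycin and 0.39 for Metronidazole with Vancomycin. Other IV means went down to -0.31, for PBS with Ampicillin. Pairing within a part of the design was not tested. With a replicate block within route, Dbp was called in 5 of 15 comparisons, as without it, and Nfil3 in 4 of 15 and 4 of 5 averages, losing Mix-PO (limma adjusted p = 0.0584) and Metronidazole (0.0587), while Tef gained the Neomycin average (0.0492). A block for library number ended the same 2 Nfil3 calls (0.0684 and 0.0842) and Vancomycin-IP for Tef (0.0551), and Tef gained the Metronidazole average (0.0367). TPM hides depth, so low Nfil3 values carry unknown counting error.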
